A study of Mus musculus with 9 samples.

Results

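Nkg7, Klrb1c and Lck are 3 genes best known from cytotoxic lymphocytes, and they were taken by name from the 2402 genes of a table of normalized messenger RNA counts from sorted mouse bone marrow. They did not behave as a set. Nkg7 was among the most abundant transcripts of the table in most libraries, Klrb1c was near 0 wherever Nkg7 was highest, and Lck stayed low in all 9. The label groups the genes by what they are known for in other cells and does not name a cell type found here.

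The samples were cells of male C57BL/6 mice from a cross of Flt3-cre and mTmG (called FlkSwitch), in which Cre under Flt3 control switches a membrane reporter from Tomato (Tom) to GFP, and every group carries both alleles. Cells without lineage markers were sorted as megakaryocyte progenitors (MkP, the precursors of platelet-forming megakaryocytes; cKit+, Sca1-, CD150+, CD41+) or as haematopoietic stem cells (HSC; cKit+, Sca1+, CD150+, Flk2-). The labels list 3 samples of GFP+ MkP from mice of 3 months, and 6 from mice of 18 to 20 months, made up of 2 GFP+ MkP, 2 Tom+ MkP and 2 Tom+ HSC. One label field gives only the upper of these ages for the old mice, and no label says whether samples came from separate animals or pools. Because Cre follows Flt3, the colour reports past Flt3 expression in a cell or its ancestors and not its present state.

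The table has 9 rows without names, so no name ties a row to a sample, an age, a colour or a cell type. No comparison between the groups was made. Levels of stem cell and megakaryocyte markers, given below, do set libraries apart, but they were not used to name them. Rows are called libraries 1 to 9, as a name only. Reads in the table ranged from 1790670 to 4373460 per library. A count of 0 reads allows up to 3 reads, which is 2.17 to 5.89 normalized counts depending on the library. Libraries 3 and 4 stood apart from the rest across the table. Among the 2341 genes that reached 10 normalized counts in 2 or more libraries, 51.0% had their 2 highest values in libraries 3 and 4 and 40.8% had their 2 lowest values there. The pattern of a gene across these 2 libraries is therefore shared with most of the table. Fewer cells of a type and less RNA per cell cannot be told apart in such bulk samples.

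The 3 proteins belong to different steps of a killer lymphocyte's work. Klrb1c encodes NKR-P1C, the NK1.1 antigen, an activating lectin-like receptor that defines natural killer (NK) cells in C57BL/6 mice. Lck encodes a Src family kinase that binds the tails of T cell coreceptors and starts signalling from the T cell receptor, and it also takes part in signalling from NK receptors. Nkg7 encodes a small membrane protein of cytotoxic granules that is needed for their efficient release. RNA of single genes of this kind is also found outside lymphocytes, so none of the 3 alone marks a cell as an NK or T cell.

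In mm10 with the GENCODE M21 annotation, the protein-coding gene Nkg7 (ENSMUSG00000004612.9) lies on chromosome 7 from 43437073 to 43438249 on the + strand, Klrb1c (ENSMUSG00000030325.16) on chromosome 6 from 128778485 to 128789215 on the - strand, and Lck (ENSMUSG00000000409.14) on chromosome 4 from 129548344 to 129573641 on the - strand. The stretches before their starts are shown because the genes differ so much in level, and to show 2 motifs whose factor families act in both lymphocytes and megakaryocytes. The sequences are from RefSeq (GRCm38.p6, the assembly of mm10), 5′ to 3′ on the strand of the gene. They hold the part of the 250 bases before the RefSeq start that lies outside GENCODE exons of the gene, and for Lck the start farther upstream. Capitals mark the ETS core AGGAAG and the RUNX core TGTGGT, on either strand.
Nkg7, chr7:43436888-43437072: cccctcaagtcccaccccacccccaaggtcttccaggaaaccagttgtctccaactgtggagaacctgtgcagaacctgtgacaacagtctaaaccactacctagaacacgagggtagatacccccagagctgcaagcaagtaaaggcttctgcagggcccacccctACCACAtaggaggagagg
Klrb1c, chr6:128788642-128788886: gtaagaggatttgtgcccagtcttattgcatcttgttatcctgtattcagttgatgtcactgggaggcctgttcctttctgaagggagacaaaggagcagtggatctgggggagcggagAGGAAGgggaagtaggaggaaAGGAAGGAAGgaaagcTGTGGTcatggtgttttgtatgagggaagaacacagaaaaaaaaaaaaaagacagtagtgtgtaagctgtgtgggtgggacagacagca
Lck, chr4:129573642-129573891: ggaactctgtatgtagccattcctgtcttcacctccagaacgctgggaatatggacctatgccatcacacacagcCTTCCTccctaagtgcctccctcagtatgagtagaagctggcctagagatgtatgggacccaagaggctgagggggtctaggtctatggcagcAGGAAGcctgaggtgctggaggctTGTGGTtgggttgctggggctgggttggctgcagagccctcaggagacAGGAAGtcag
Nkg7 had 1 match to the RUNX core, on the opposite strand at -83 from the start, and its 1 match to the ETS core, at -34, lies in a GENCODE exon and is not printed. Klrb1c had 3 matches to the ETS core, of which the pair at -105 and -101 overlap, and 1 to the RUNX core. The Klrb1c stretch lies inside the GENCODE gene, whose start on the - strand is at 128789215, upstream of the RefSeq start. The upstream start of Lck had 3 ETS matches and 1 RUNX match, while its second RefSeq start (chr4:129558392-129558622) had 1 ETS match at -114 and no RUNX match. Of 32851 RefSeq windows of the same 250 bases, 29.5% held the ETS core and 14.0% the RUNX core. These are matches of letters only. The table counts reads per gene, so it does not show which start of Lck was used.

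Nkg7 was high in most libraries and its level spanned 2 orders of magnitude. Its normalized counts, scaled per library by the authors, were 15844, 27162, 185, 667, 13914, 14859, 16926, 2153 and 6507 in libraries 1 to 9. Library 2 was the highest and library 3 the lowest, with library 4 next to it and libraries 8 and 9 in between. The other 5 libraries lay between 13914 and 27162. In library 2, Nkg7 took 0.741% of all reads of the table (95% exact interval 0.728 to 0.753), and in library 3 it took 0.00877% (0.00745 to 0.0103). The ratio of these extremes in normalized counts was 147-fold (exact counting interval 125 to 173), against 91.4-fold when library 2 was left out. Leaving out library 3 gave 40.7-fold, and leaving out libraries 3 and 4 gave 12.6-fold. All 8 steps between neighbouring libraries in the order of Nkg7 exceeded counting error under the deposited scaling, the smallest being 1.07-fold. The order of the higher libraries depended on the scaling. When scaled to the table total, library 7 (11481) fell below libraries 1 (15774) and 6 (11941). The intervals given cover counting error only, since reads are not independent molecules. With no replicates known, they do not include the variation between animals or sorts.

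Per length, Nkg7 ranked near the top of the table. Reads per kilobase of merged exons put it at rank 2 of the genes with a known length (2258) in libraries 1 and 2, rank 5 in libraries 5, 6 and 7, and rank 11 in library 9. It was at rank 84 in library 8, rank 259 in library 4 and rank 665 in library 3. Even the lowest library thus had Nkg7 above 70.5% of those genes, at 157 reads.

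Klrb1c was high where Nkg7 was low. Its normalized counts in libraries 1 to 9 were 4.92, 0, 493, 469, 1.09, 0, 1.54, 68.2 and 12.3, from 3, 0, 418, 410, 1, 0, 1, 65 and 17 reads. Libraries 3 and 4 were the highest and did not differ beyond counting error (ratio 1.05, interval 0.915 to 1.21). Library 4 was 6.88-fold above library 8 (interval 5.29 to 9.09), and library 8 was 5.53-fold above library 9 (3.21 to 10.1). Below library 9 no neighbours in the order differed beyond counting error, as the other 5 libraries had at most 3 reads. Library 3 was at least 117.5-fold higher than library 6 and at least 83.7-fold higher than library 2, both at 0 reads and taken at 3 reads each. Without libraries 3 and 4 the highest library was at least 16.2-fold above library 6. The median of 4.92 normalized counts rests on 3 reads and was between 3.23 (without library 3, 4, 8 or 9) and 8.62 (without library 2, 5, 6 or 7) when 1 library was left out, and 1.54 without both libraries 3 and 4. Per kilobase, Klrb1c was at rank 741 in library 3, rank 776 in library 4, rank 1266 in library 8 and rank 1770 in library 9.

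Lck was low throughout and varied least. It had 11.5, 17.7, 44.8, 43.5, 10.9, 6.99, 10.7, 14.7 and 26.8 normalized counts in libraries 1 to 9, from 5 to 38 reads. Libraries 3 and 4 were again the highest and library 6 the lowest, with a ratio of 6.41 between library 3 and library 6 (interval 2.52 to 20.9). When library 6 was left out the ratio was 4.17, and with libraries 3 and 4 left out it was 3.83. Scaling to the table total gave 12.4. Of the 8 steps in its order, only that from library 4 to library 9 exceeded counting error, at 1.62-fold with an interval from 1.00 to 2.62. The order of the lower libraries is therefore not resolved at this depth. Per kilobase, Lck kept to ranks 1520 to 1783 in every library.

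**Figure D1:**
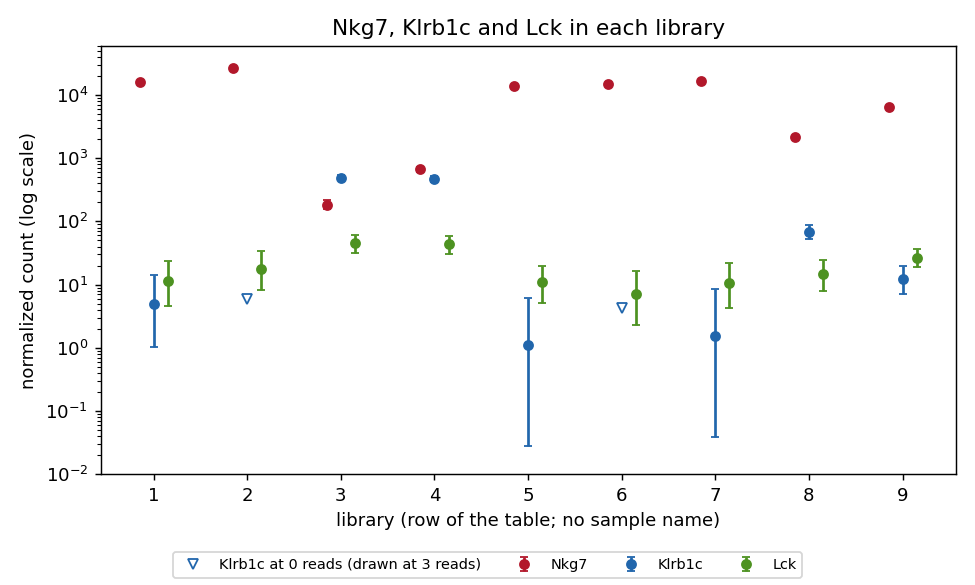
Normalized counts (log axis) of Nkg7 (red), Klrb1c (blue) and Lck (green) in each of the 9 unnamed libraries, with exact Poisson intervals at 95% as bars, which cover counting error only. Nkg7 is far above the other 2 genes except in libraries 3 and 4, where Klrb1c reaches 493 and 469, and Klrb1c at 0 reads is drawn as an open triangle at 3 reads.

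Reads of all 3 genes differed between libraries beyond counting error (chi-square test of reads against 1 rate, Benjamini-Hochberg adjustment over 2341 genes), as did those of 98.7% of all genes tested, so passing this test does not set them apart. The adjusted p of Lck was 2.58e-10, and it was 0.00839 without libraries 3 and 4. With all libraries, those of Nkg7 and Klrb1c were too small to be written by the software, and without libraries 3 and 4 that of Klrb1c was 2.58e-44. The test compares libraries and not conditions. On normalized counts with 1 added, all 3 members had a ratio of highest to lowest library of at least 4, against 66.4% of the genes tested.

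The orders of Nkg7 and Klrb1c were opposed at one end. The 4 libraries with the lowest Nkg7 (3, 4, 8 and 9, from the lowest upwards) were the 4 with the highest Klrb1c. Libraries 8 and 9 followed libraries 3 and 4 in both orders, but the order of libraries 3 and 4 in Klrb1c was within counting error and turned under median-of-ratios scaling (345 and 397). The step in Klrb1c from library 9 down to library 1, next in its order, was within counting error (ratio 2.50, interval 0.724 to 13.3). Lck shared 3 of those 4 among its own 4 highest, library 2 taking the place of library 8. In Lck, libraries 2 and 8 did not differ beyond counting error (ratio 1.20, interval 0.460 to 2.99). Under scaling to the table total, library 8 (16.8) was above library 2 (15.9). Libraries 3 and 4 held the 2 lowest values of Nkg7 and the 2 highest of Klrb1c and Lck, and this held under the deposited scaling, scaling to the table total and median-of-ratios scaling. The share of genes with the first pattern was 40.8% and with the second 51.0%, as given above. The opposition of Nkg7 to Klrb1c in libraries 3 and 4 thus follows the main division of the table. No such share was counted for libraries 3, 4, 8 and 9 together, so the place of libraries 8 and 9 is described for the members only.

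A ratio of 2 genes within a library does not depend on the scaling between libraries. Reads per kilobase of Nkg7 were 1.22 times those of Klrb1c in library 3 (exact interval 1.01 to 1.47), 4.61 times in library 4 (4.05 to 5.24), 102 times in library 8 (80.0 to 133) and 1712 times in library 9 (1069 to 2940). In library 1 the ratio was 10429 on 3 reads of Klrb1c (3568 to 50582). It was at least 14944 in library 2 and at least 11473 in library 6, where Klrb1c had 0 reads. Libraries 5 and 7, with 1 read of Klrb1c each, had ratios of 41483 (7444 to 1638624) and 35720 (6410 to 1410987). Nkg7 was thus above Klrb1c per length in every library, but in library 3 the 2 genes were nearly level, and with the longest transcript as the length the interval there included 1 (ratio 1.12, interval 0.925 to 1.35). The intervals of libraries 3, 4, 8 and 9 do not overlap one another.

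Against Lck the excess of Nkg7 was again smallest in libraries 3 and 4. The ratio per kilobase was 13.2 in library 3 (9.24 to 19.4), 49.2 in library 4 (35.4 to 70.2), 470 in library 8 (279.6 to 862) and 778 in library 9 (564 to 1106), the last 2 with overlapping intervals. In libraries 1, 2, 5, 6 and 7 it lay between 4103 and 6809, with intervals that all overlap. Klrb1c and Lck changed places across the table. Klrb1c was 10.9 times Lck per kilobase in library 3, 10.7 times in library 4 and 4.59 times in library 8, whereas in library 9 it was 0.454 times Lck (0.240 to 0.828) and in library 5 0.0989 times (0.00228 to 0.695). In library 2 it was at most 0.501 times Lck, and in libraries 1, 6 and 7 the interval included 1.

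**Figure D2:**
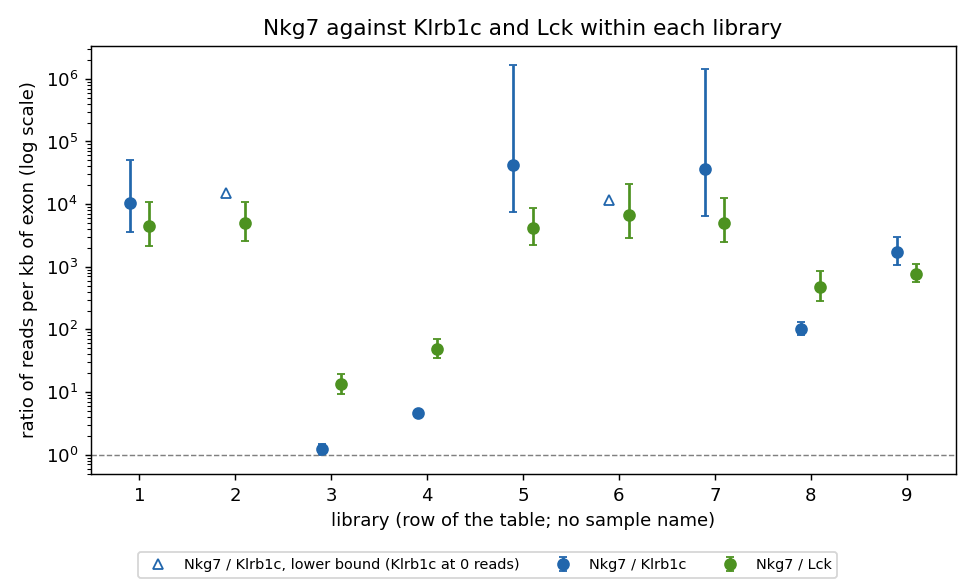
Reads per kilobase of merged exons of Nkg7 divided by those of Klrb1c (blue) and of Lck (green) within each library, on a log axis, with exact intervals at 95% and the dashed line at a ratio of 1. Open triangles are lower bounds where Klrb1c had 0 reads, and the ratio to Klrb1c goes from 1.22 in library 3 to 41483 in library 5.

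Other genes of cytotoxic granules did not share 1 pattern. Of the 29 genes listed for granules and their release, 6 were measured, and the other 23 were not analysed here. Stx11, syntaxin 11, a membrane fusion protein needed for the release of cytotoxic granules and used also in platelet secretion, followed Nkg7. It had 674, 867.5, 14.2, 25.2, 780.2, 734, 841, 159 and 297 normalized counts in libraries 1 to 9. Unc13d, which primes the same granules for fusion, had its 2 highest values in libraries 3 and 4 (2030 and 1763) and 548 to 1402 in the others, though under median-of-ratios scaling library 3 (1420) fell below library 8 (1489). Vamp7, a vesicle fusion protein, stayed between 67.3 and 151. Of the 5 list genes that passed the filter, Nkg7 included, 3 reached a 4-fold range, with a median of 5.65-fold for all of them, against 6.16-fold over all 2341 genes.

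Of the signalling genes around Lck, 7 of 33 were measured. Lat, the adaptor that joins T cell receptor kinases to their effectors and also serves platelet receptors, had a median of 6816 and was lowest in libraries 3 and 4 (1371 and 1501). Unc119, which binds the lipid tail of Src family kinases, was at 472 and 360 in these libraries and at 2489 to 7080 elsewhere. Ubash3a, a suppressor of T cell receptor signalling, had 3.54 and 8.01 there, 89.1 in library 8, 120 in library 9 and 597 to 918 in the other 5 libraries. Ptprc, the phosphatase CD45 that activates Lck, went the other way, with 288 and 293 in libraries 3 and 4 and at most 112 elsewhere. All 7 passed the filter, each with a range above 4-fold, and the middle value of those ranges was 19.6-fold. Of all genes tested, 66.4% reached 4-fold. In 4 of them libraries 3 and 4 were the 2 lowest, and in 2 of them, Ptprc and Lck, the 2 highest, patterns that 40.8% and 51.0% of all genes tested had.

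Of 11 Src and Syk family kinases, 4 were measured, Lck among them. Syk, a kinase of immune and platelet receptors, had a median of 309 and was lowest in libraries 3 and 4 at 57.8 and 61.8. Src, the founding member of the Src family, had 7.08 and 8.01 normalized counts in libraries 3 and 4 and between 25.3 and 42.4 elsewhere.

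Most measured genes of lymphoid transcription factors and cytokine receptors were highest in the same 2 libraries as Klrb1c. Of 23 listed, 7 were measured, all passed the filter, and 6 had their 2 highest values in libraries 3 and 4, a pattern found in 51.0% of all genes tested. Il2rg, the receptor chain shared by interleukin-2, interleukin-7 and interleukin-15, had 11613 and 15769 normalized counts there and 256 to 544 in the others. Gata3, a transcription factor of T cells and innate lymphoid cells that is also made in stem cells, had 2350 and 1316 there, 331 in library 8, 243 in library 9 and 28.0 to 62.9 in the remaining 5. Id2, an inhibitor of E proteins needed by NK cells, had 460 and 638 there and at most 55.8 elsewhere. Ikzf1, the lymphoid factor Ikaros, was nearly even, between 104 and 289, and under median-of-ratios scaling library 3 (196) fell below libraries 2 (226) and 6 (229). The median range of the list was 63.3-fold, against 6.16-fold over all genes. Klrb1c was the 1 measured gene of 33 listed NK cell receptors and adaptors, so no second NK receptor stands beside it here.

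**Figure D3:**
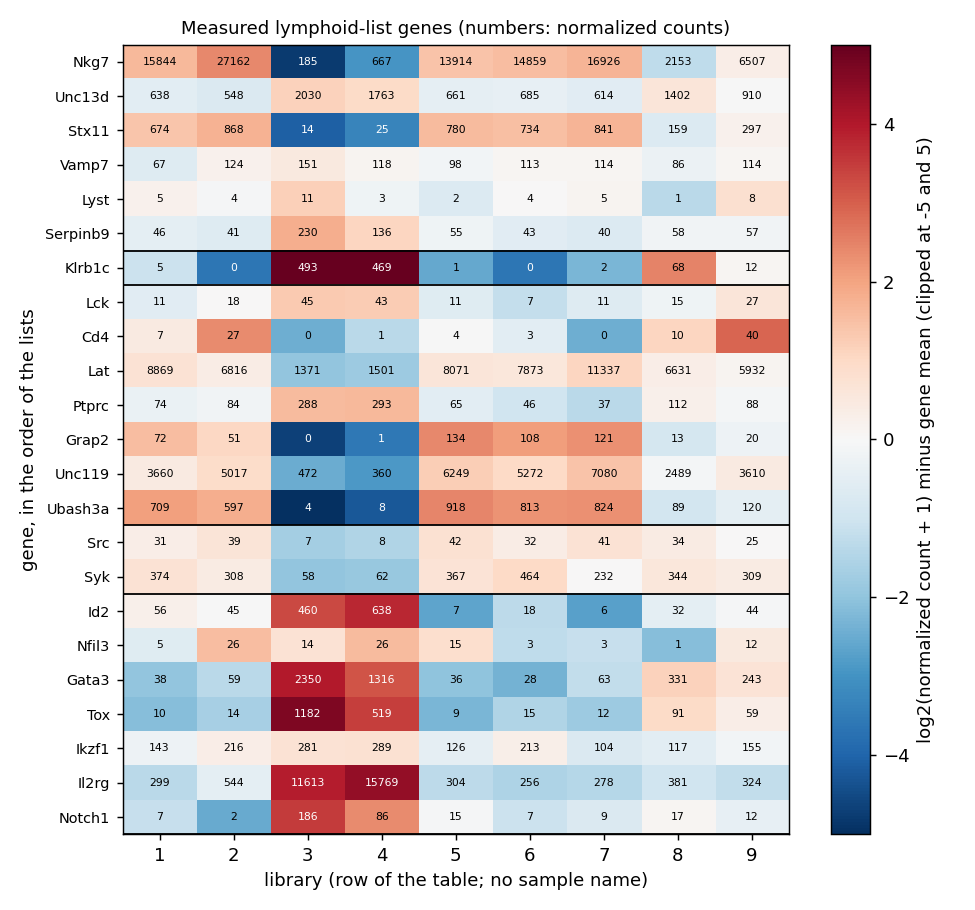
Measured genes of the 5 lymphoid lists except 1 that is not reported (rows, with black lines between the lists) in the 9 libraries (columns), where colour is log2(normalized count + 1) minus the mean of the gene and the printed numbers are normalized counts. Nkg7, Stx11 and Ubash3a are lowest in libraries 3 and 4, and Klrb1c, Gata3 and Il2rg are highest there.

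The 21 measured genes of these 5 lists other than the 3 members thus fell on both sides. Of the 20 that passed the filter, 9 had their 2 highest values in libraries 3 and 4 and 7 their 2 lowest. Over all genes tested the corresponding shares were 51.0% and 40.8%. Their median range was 28.3-fold, against 6.16-fold over all genes.

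Markers of the sorted cells moved with the same libraries. All 10 measured megakaryocyte and platelet markers of 15 listed had their 2 lowest values in libraries 3 and 4, where their normalized counts summed to 3443 and 9229, against 82382 to 159411 elsewhere. All 11 measured stem cell markers of 15 had their 2 highest values there, with sums of 52250 and 45818 against 1884 to 13350. Over all genes tested, 40.8% had their 2 lowest values in libraries 3 and 4 and 51.0% their 2 highest. The lists were chosen with earlier results of these data known. The part of these markers in the levels of Nkg7 and Klrb1c was not tested. Of other cell types, Vpreb1 of B cells was at most 12.3 in any library, and Cd5l of macrophages was at 0 in libraries 3 and 4 and at most 39.8. Fcer1a of mast cells and basophils was at 0 in libraries 3, 5 and 7 and reached 103 in library 1. The part of such cells in the levels of the members was not tested. Of the 4 measured granulocyte and monocyte markers of 15, the summed level was 12916 and 12329 in libraries 3 and 4, carried by the protease gene Prtn3, and 366 to 2142 elsewhere. The list split evenly, with Prtn3 and the granulocyte receptor gene Csf3r (668 and 861 there, at most 119.5 elsewhere) highest in libraries 3 and 4, and Csf1r and Cebpa lowest there, Cebpa at 0 in both.

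The genes whose profile was most like that of Nkg7 included Stx11 from the list for granules and their release, and the others were not on that list. Likeness was measured as the root mean square difference of log2(normalized count + 1), each gene centred on its mean over the 9 libraries, among 2190 named genes. Stx11 was closest at 0.40, against a median of 2.65 over these genes, of which 76 were under 1. Cst7, cystatin F, an inhibitor of granule proteases in cytotoxic and myeloid cells, followed at 0.60, with 953, 689, 5.90, 9.15, 549.8, 562, 543, 36.7 and 136 normalized counts in libraries 1 to 9. Rapsn (0.62), a scaffold of the nerve-muscle synapse, ranged from 1.18 in library 3 to 269 in library 7. The adhesion receptor gene Gpr97 (0.64) had a median of 6739, and Bin1 (0.65), which bends membranes, one of 917. Stx11 was the closest gene under each of the 4 other settings tried, which were pseudocounts of 0.5 and 5, scaling to the table total, and leaving out libraries 3 and 4. Each of the 2 pseudocounts kept 3 of the 5 genes, Stx11, Cst7 and Gpr97, and scaling to the table total kept all 5. Leaving out libraries 3 and 4 kept 2 of the 5 genes, Stx11 and Bin1.

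The 5 genes most like Klrb1c all had their 2 highest values in libraries 3 and 4, and 3 of them were at 0 in 4 or 5 libraries. They were chosen for their likeness to Klrb1c, so these traits follow from the choice. Of all genes tested, 51.0% had their 2 highest values in libraries 3 and 4. Clip3 (0.77), a protein of membrane trafficking, had 242 and 98.4 in libraries 3 and 4 and at most 12.6 elsewhere. Tenc1 (0.89), a tensin, and Sfrp1 (0.90), a secreted Wnt inhibitor, were at 0 in 5 libraries. Nkx2-3 (0.89), a homeobox factor, had 2908 and 2848 in libraries 3 and 4, 329 in library 8 and 85.5 in library 9. Jam2 (0.94), an adhesion molecule, had 422 and 612, then 102 in library 8. The median over all genes was 3.11. With libraries 3 and 4 left out, 1 of the 5 (Jam2) stayed among the closest, and with a pseudocount of 5 it was 2. Lck was not compared in this way, since its highest value was under 50.

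**Figure D4:**
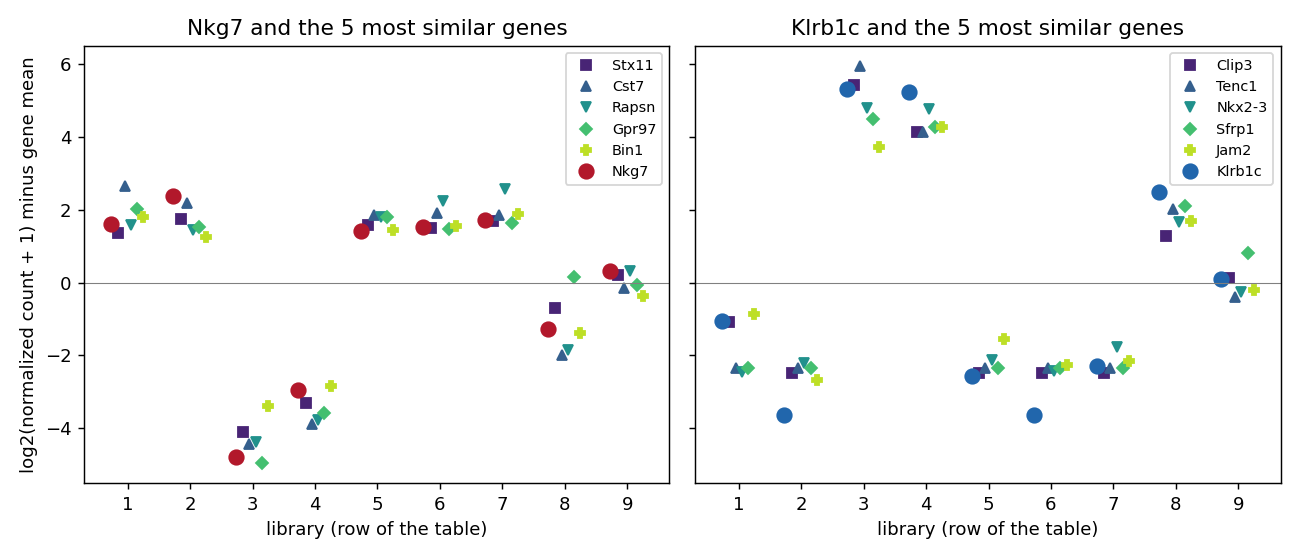
Profiles of Nkg7 (left) and Klrb1c (right), large circles, with the 5 most similar genes of each, small symbols, as log2(normalized count + 1) minus the mean of the gene in each unnamed library. Nkg7 and its companions are lowest in libraries 3 and 4 and Klrb1c and its companions highest there, with library 8 on the same side of the gene mean as libraries 3 and 4 except for Gpr97.

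Genes next to the members on the chromosome were compared with them. Within 200 kb of Nkg7, 5 other genes of the table were annotated. Lim2, a lens membrane protein gene that ends 1077 bases upstream of Nkg7 on the same strand, had 161, 104, 0, 0, 43.5, 65.7, 58.3, 8.39 and 21.7 normalized counts in libraries 1 to 9, low in the same libraries as Nkg7 at a far lower level. Cldnd2, 2533 bases downstream, stayed between 31.4 and 40.6 except in libraries 3 and 4 (8.26 and 10.3). Etfb, a subunit of the electron transfer flavoprotein 5834 bases downstream, was abundant in all, from 5646 in library 3 to 29207 in library 7. Siglecg did not exceed 10.1, and Cd33 had 39.3 in library 2, 28.3 in library 9 and at most 2.17 elsewhere.

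Around Klrb1c only BC035044 was in the table, 59875 bases away, with 1.18 and 0 normalized counts in libraries 3 and 4 and at most 21.6 elsewhere. Of all genes tested, 40.8% had their 2 lowest values in libraries 3 and 4. BC035044 had 13.0 in library 9, so it was not the reverse of Klrb1c throughout. A predicted gene, Gm44511, overlaps Klrb1c on the same strand, and Klrb1 relatives of similar sequence are known, so reads of Klrb1c could include theirs. Near Lck, Bsdc1 was highest in libraries 3 and 4 (95.5 and 73.2) and lay between 29.2 and 53.6 elsewhere, while Kpna6 lay between 29.7 and 58.9 with no such order.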

How the data were processed

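The one table used holds normalized counts deposited by the authors, a signal scaled within each row. Its 9 rows have no names and its columns are 2402 genes. The submitters' processing notes name mm10, Bowtie2, STAR and DESeq, with no roles or versions. How reads were counted, the annotation, the scaling method, strand and gene selection: not given in the sources used here. Trizol extraction and an NEBNext Ultra kit (with Tn5 named) are per the labels' protocols.

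Values of each row were whole multiples of 1 step, so dividing by it gave whole reads (tolerance 0.1) for 100% of values in every library. Intervals of ratios are exact conditional binomial, and of shares exact Clopper-Pearson, at 95%. The chi-square test covered 2341 genes that reached 10 normalized counts in 2 or more rows, at an adjusted p of 0.05. It was tested on data simulated with counting error only, so that trial does not cover variation between animals or sorts. Levels of different genes were compared per kilobase of merged GENCODE M21 exons (2258 genes matched by symbol). Python 3.11.15, scipy 1.17.1 and pandas 2.3.3 were used.

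Named were the members, the 4 genes with the highest median of each lymphoid list (all of shorter lists), the 5 genes most like Nkg7 and Klrb1c, and table genes within 200 kb. One gene that this rule names is counted but not reported here. No further list member was found by a synonym. Unnamed or predicted genes were left out of the likeness. Members and lists were chosen with earlier results of these data known, and the motifs and the comparison of libraries 3 and 4 with all genes after the table had been seen. Alternatives were other scalings, filters, pseudocounts, gene lengths and libraries left out.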

Additional observations from a re-analysis of the deposited data

How the results depend on the processing

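The ratio of highest to lowest library changed most with the scaling and the libraries kept. For Nkg7 it was 84.5 under scaling to the table total, 219.6 under median-of-ratios and 12.6 without libraries 3 and 4, and its median was 10946, 15099 and 14859 normalized counts. For Klrb1c the ratio was at least 228, at least 88.0 and at least 16.2 under the same settings, and 151 when counts below 3 reads were set to that floor. For Lck it was 12.4, 4.89 and 3.83. The Klrb1c median was 1.54 without libraries 3 and 4. The other scalings shift all genes of library 3 by 0.64 (table total) and by -0.52 (median-of-ratios) on the log2 scale. That shift is the construction of these settings. Leaving out each library in turn gave 40.7 to 147 for the Nkg7 ratio and 10210 to 14386 for its median, at least 83.7 to at least 117.5 and 3.23 to 8.62 for Klrb1c, and 4.17 to 6.41 and 13.1 to 16.2 for Lck. The median ratio of Nkg7 to Klrb1c per length was 10429, and 6071 to 10951 with 1 library left out. It is the ratio of library 1, on 3 reads of Klrb1c, with a counting interval of 3568 to 50582. The upper end, 10951, rests in part on the lower bound of library 6. For Nkg7 to Lck the median was 4103, and 2441 to 4262 with 1 library left out. The count of genes whose reads differed was 2311 (2121 to 2311 with 1 library left out), and the 3 members passed in every setting run. Depth limits Klrb1c, with at most 3 reads in 5 libraries, and Lck, with 5 to 38 reads. No paired analysis was possible because the rows of the table carry no sample names or replicate numbers.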

Other observations

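A small set of genes had its 2 highest values in libraries 2 and 9, and it held Cd4, a coreceptor that Lck binds, and Cd33, a neighbour of Nkg7. This pattern was noticed, and its genes chosen, after the values were seen. It was found in 34 of 2341 genes (1.45%), and some of these were nearly even over the libraries, such as Cdc42ep3 (1346 to 2096). Cd4 had 27.5 and 39.8 normalized counts in these libraries and at most 10.5 in any other. Csf1r, the macrophage colony-stimulating factor receptor, had 64.8 and 82.6, but also 64.0 in library 1. Cxcr2, a chemokine receptor of neutrophils, had 53.0 and 58.7 against at most 8.69 elsewhere, and Ear2, an eosinophil-associated ribonuclease, 108 and 84.7 against at most 9.84. Pilrb1 had 68.7 and 89.1 against at most 19.7, and Lilrb4 56.9 and 80.4 against at most 13.1. Nkg7 was highest in library 2, at 27162, and was 6507 in library 9, below 5 other libraries. Klrb1c was at 0 reads in library 2 and at 17 reads in library 9.

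In rising order of Nkg7 came libraries 3 and 4 (Nkg7 185 and 667), then libraries 8 and 9 (2153 and 6507), then libraries 1, 2, 5, 6 and 7 (13914 to 27162). Nkg7 alone did not divide libraries 3, 4, 8 and 9 into the first 2 of these sets, since the steps among them were of similar size. The steps within sets were 3.60-fold from library 3 to 4 and 3.02-fold from library 8 to 9. Among libraries 1, 2, 5, 6 and 7 the steps were smaller, from 1.07-fold to 1.60-fold. Between sets the steps were 3.23-fold from library 4 to 8 and 2.14-fold from library 9 to 5. Tox, a factor needed for the development of NK and T cells and named after its values were seen, had 1182 and 519 in libraries 3 and 4, 91.2 and 58.7 in libraries 8 and 9, and 8.69 to 15.4 in the others. Klrb1c separated library 8 (68.2) from library 9 (12.3), and library 9 did not differ beyond counting error from library 1 (4.92). Lck did not separate libraries 8 and 9, at 14.7 and 26.8, from library 2 at 17.7. No label ties these sets to a group of the study.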
